A study of Danio rerio with 6 samples.

Results

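The genes described here are caspases and Bcl-2 family members, the core machinery of programmed cell death, in blood cells of the larval zebrafish kidney. They were chosen by symbol as 9 genes of the deposited count table: casp8, casp9, casp3a, casp3b, baxa, bcl2a, bcl2l1, mcl1a and mcl1b. These symbols stood on 10 of the 27314 rows, because baxa had a second row (ENSDARG00000089129) at 0 in all 6 libraries. The libraries were made with Smart-seq2, a full-length cDNA method without molecular identifiers, from larvae of the line Tg(coro1a:DenNTR) given MTZ (3 libraries) or DMSO (3 libraries). The genotype label of every library reads WT although the protocol names this transgenic line, whose transgene is under the coro1a promoter, active across leukocytes. MTZ usually stands for metronidazole, a prodrug that nitroreductase turns into a cell toxin, and DMSO is the solvent control. The dose of MTZ is not given in the sources used here. All larvae were at 9 days post fertilization (3.5 dpt in the labels), labelled kidney cells were turned red by photoconversion, some 80 larvae were combined and dissociated, and each library was made from 50 sorted red cells. Whether the 3 libraries of a group derive from separate pools is not stated in the labels, and p-values therefore measure only a spread between libraries that may be technical.

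Apoptosis can start along either of a pair of routes. In the extrinsic route a death receptor at the cell surface recruits and activates the initiator caspase-8. In the intrinsic route Bax opens the outer mitochondrial membrane, cytochrome c escapes, and the initiator caspase-9 is activated on the Apaf1 scaffold. Both routes end at executioner caspases such as caspase-3, which cut many cellular proteins. The guardian proteins Bcl-2, Bcl-xL (encoded by bcl2l1) and Mcl-1 hold Bax in check, and BH3-only proteins release it by binding the guardians. In mice, Mcl-1 is needed for the survival of blood stem cells, lymphocytes and neutrophils, and Bcl-xL for the lifespan of platelets. Zebrafish carry duplicate copies of several of these genes, marked a and b.

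Total counts ran from 16928982 to 20674279 in the MTZ libraries and from 14058399 to 16400582 in the DMSO libraries. Values are given in CPM, which are counts per 1000000 counts of a library size adjusted with TMM factors, and 3 counts equalled 0.146 to 0.229 CPM depending on the library. Intervals on counts, and limits set from 3 counts where a library or group had 0, cover counting error only. They treat each count as independent. Without molecular identifiers, counts copied from the same molecule cannot be told apart, so these intervals and limits may be too narrow. The sorted marker's gene coro1a had between 1265 and 1978 CPM in MTZ libraries and between 1482 and 2528 CPM in DMSO libraries. Kidney tubule markers summed to at most 0.265 CPM, except for 42.1 CPM in DMSO 1. The libraries stood apart in their cell type markers. Neutrophil markers summed to 15611, 1052 and 1494 CPM in MTZ libraries and to 5476, 1022 and 5028 CPM in DMSO libraries. Skeletal muscle markers summed to 7446 CPM in DMSO 1 and to at most 25.3 CPM elsewhere, and exocrine pancreas markers to 579 CPM in MTZ 3, with no more than 10.5 CPM in any of the other libraries. In such bulk libraries, fewer cells of a type and less RNA per cell cannot be told apart.

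No caspase or Bcl-2 family gene passed edgeR's quasi-likelihood test between MTZ and DMSO. Of the 9 genes, 8 passed the filter on low counts and casp3b did not, and bcl2a had at least 10 counts in all 3 MTZ libraries but in only 1 DMSO library, so it entered the test through the group where it was high. EdgeR called 0 of the 8 tested genes at an adjusted p under 0.05, in a comparison where it called 0 of 10283 rows (0%). The common biological coefficient of variation was 1.42, a spread between libraries at which edgeR has little power, so a gene that was not called is not shown to be unchanged. At an unadjusted p under 0.05 it had 0 of the 8 and 327 rows (3.18%). DESeq2 called 386 of 10105 rows (3.82%), or 130 of 9778 (1.33%) when given the filtered rows only. EdgeR without a filter called 52 of 17911 rows (0.29%) and limma voom 0 of 10283 (0%). Each of these called none of the 9 genes it gave an adjusted p, and casp3b had one only without a filter (0.586). For all 8 tested genes the edgeR adjusted p was 0.9997. One gene, bcl2a, had every MTZ library above every DMSO library, a pattern found in 5.58% of tested rows, and none had every MTZ library below every DMSO library, the pattern of 5.17% of tested rows.

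**Figure D1:**
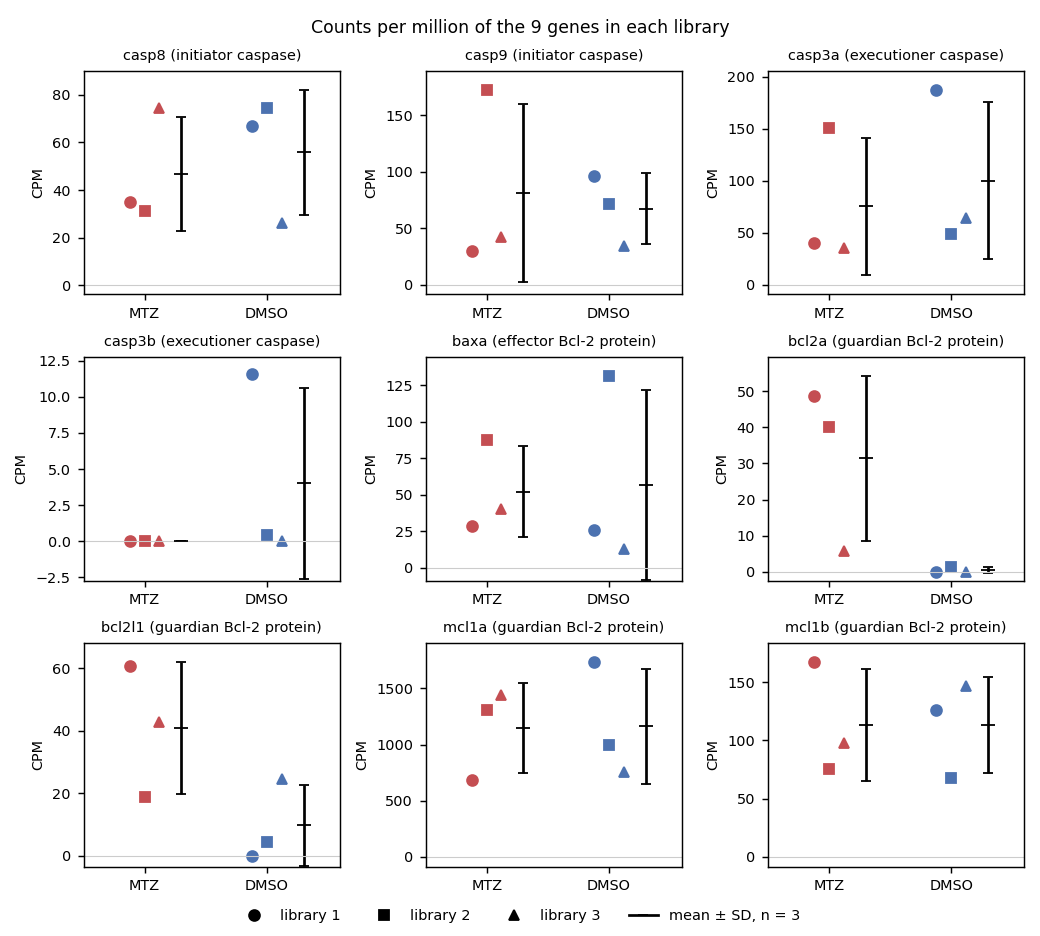
CPM of each of the 9 genes in the 3 MTZ libraries (red, left) and 3 DMSO libraries (blue, right), 1 panel per gene with its own linear axis, symbols for library numbers and black bars for the mean ± SD (n = 3). Only bcl2a has all MTZ libraries (lowest 5.61 CPM) above all DMSO libraries (highest 1.38 CPM), and casp3b is seen almost only in DMSO 1.

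The initiator caspase genes were present in every library. The extrinsic initiator casp8 (ENSDARG00000058325) had 35.1, 31.1 and 74.3 CPM in the MTZ libraries and 67.0, 74.4 and 26.0 CPM in the DMSO libraries. MTZ 3 lay with the high DMSO libraries and DMSO 3 below all MTZ libraries, so the groups overlapped. The log2 fold change of casp8 was -0.25 ± 0.81 (SE), with a 95% interval from -2.10 to 1.59, and it stood at 0.02 without DMSO 2.

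The intrinsic initiator casp9 (ENSDARG00000004325) had 29.6, 172 and 42.5 CPM in the MTZ libraries and 96.1, 71.5 and 34.2 CPM in the DMSO libraries. MTZ 2 was the highest library of all, MTZ 1 lay below every DMSO library and MTZ 3 lay between DMSO 3 and DMSO 2, so the groups overlapped. Its log2 fold change was 0.28 ± 0.80, with a 95% interval from -1.56 to 2.11. That sign rested on MTZ 2, since without it the log2 fold change was -0.89. It was also slightly negative, at -0.04, without DMSO 3.

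Of the executioner caspase copies, casp3a carried nearly all counts. The gene casp3a (ENSDARG00000017905) had 39.7, 151 and 35.1 CPM in the MTZ libraries and 187, 48.9 and 63.9 CPM in the DMSO libraries. One library of each group, MTZ 2 and DMSO 1, stood well above the rest, and these were also the highest libraries for casp9. The log2 fold change of casp3a was -0.41 ± 0.78, with a 95% interval from -2.20 to 1.39. It was 0.41 without DMSO 1 and -1.41 without MTZ 2.

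The paralog casp3b (ENSDARG00000055045) had no counts in any MTZ library, and 152, 7 and 0 counts in the DMSO libraries (11.6, 0.402 and 0 CPM). Of the 159 DMSO counts, 152 came from DMSO 1. With 3 counts over the group in place of the 0 in MTZ, the pooled rate was 64.3-fold lower in MTZ. With a library left out, this ratio ran from 3.96-fold without DMSO 1 to 99.0-fold without DMSO 2. It was 42.6-fold without MTZ 1, 40.7-fold without MTZ 3 and 97.0-fold without DMSO 3. These ratios cover counting error only and are no bounds on the difference between groups. DMSO 1 was also the library with 7446 CPM of skeletal muscle markers and the keratin genes krt4 and krt5 at 100 and 83.1 CPM. The part of these other tissues' RNA in the casp3b counts was not tested. As a share of the counts of both copies, casp3b took 5.85% in DMSO 1 (exact 95% interval from 4.98% to 6.82%) and 0.816% in DMSO 2. The remaining libraries had none. By counting error alone, their counts of 0 allow a share of up to 0.401%, 0.121% and 0.417% in MTZ 1, MTZ 2 and MTZ 3 and up to 0.303% in DMSO 3. The share averaged 0% in MTZ and 2.22 ± 3.17% in DMSO (SD, n = 3), a difference with p = 0.4 in a two-sided exact permutation test, where 3 against 3 libraries cannot give a p below 0.1.

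The pore-forming effector baxa (ENSDARG00000020623) varied widely among DMSO libraries. It had 28.6, 87.4 and 40.2 CPM in the MTZ libraries and 26.1, 131 and 12.7 CPM in the DMSO libraries, where the highest library was 10.3 times the lowest. DMSO 2 exceeded every MTZ library and the other DMSO libraries lay below every MTZ library. The log2 fold change was -0.12 ± 1.01, with a 95% interval from -2.43 to 2.18. Without DMSO 2 it was 1.43, and it was also positive without MTZ 1 (0.18) or MTZ 3 (0.04). The second row of baxa held no counts in any library, so no counts of the gene were split onto it.

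Among the guardians, bcl2a was the gene that separated the groups. The gene bcl2a (ENSDARG00000094704) had 48.6, 39.9 and 5.61 CPM in the MTZ libraries and 0, 1.38 and 0 CPM in the DMSO libraries. In counts this was 916, 657 and 115 in MTZ and 0, 24 and 0 in DMSO, so every DMSO count came from DMSO 2. The groups did not overlap, although MTZ 3 was 8.66 times below MTZ 1. Its mean was 31.4 ± 22.7 CPM in MTZ libraries, against 0.460 ± 0.796 CPM in DMSO libraries (SD, n = 3 each).

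The log2 fold change of bcl2a was 6.06 ± 2.79, with a 95% interval from -0.33 to 12.46 that includes no change, and an edgeR unadjusted p of 0.0603. DESeq2 gave it an adjusted p of 0.0745 on all rows and 0.211 on the filtered rows, and over 15 alternatives the adjusted p ran from 0.0745 to 1. The ratio of pooled MTZ and DMSO rates was 57.9, with an exact 95% interval of 38.8 to 90.7 for counting error alone. With a library left out it ran from 38.4 without DMSO 3 to 85.3 without MTZ 3. Without DMSO 2 the DMSO libraries held no counts, and the ratio was 288 with 3 counts over the group in place of 0. As the groups did not overlap, leaving out a single library could not turn the direction.

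The gene bcl2l1 (ENSDARG00000008434), for the Bcl-xL protein, also had a higher mean in MTZ, but its groups overlapped. It had 60.9, 18.9 and 42.8 CPM in the MTZ libraries and 0, 4.42 and 24.5 CPM in the DMSO libraries. DMSO 3 lay above MTZ 2, and DMSO 1 had no counts, which by counting error alone allows up to 0.229 CPM. The mean was 40.9 ± 21.1 CPM in MTZ libraries, against 9.64 ± 13.1 CPM in DMSO libraries (SD, n = 3 each). The log2 fold change was 2.08 ± 1.99, with a 95% interval from -2.47 to 6.64, and it ran from 1.5 without DMSO 1 to 4.20 without DMSO 3.

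Markers of thrombocytes, the fish counterpart of platelets, had a higher sum in MTZ, as bcl2a and bcl2l1 did, but not every marker was higher. This list was picked out of 13 marker lists after the values were seen. The 8 thrombocyte markers summed to 437, 367 and 403 CPM in the MTZ libraries and to 69.0, 226 and 232 CPM in the DMSO libraries, without overlap. A count was found for 7 of the 8 in each MTZ library and for 6 or 7 in each DMSO library. The defining integrin gene itga2b had 71.0, 68.0 and 47.2 CPM in the MTZ libraries and 1.83, 0.0575 and 0.129 CPM in the DMSO libraries. Of the 8 markers, 5 had a higher mean in MTZ and 3 a lower one. Among the 5 with a higher mean, gp1bb was near the floor, with 4, 8 and 6 counts in the MTZ libraries and 1, 0 and 0 in the DMSO libraries. Another of them, mpl, overlapped, with 83.0, 0 and 60.7 CPM in the MTZ libraries and 0, 0 and 32.8 CPM in the DMSO libraries. The platelet receptor gene gp9 had 0, 5.84 and 5.51 CPM in the MTZ libraries and 17.0, 19.0 and 24.2 CPM in the DMSO libraries, so every MTZ library lay below every DMSO library. The fibronectin gene fn1b had 9.49, 10.2 and 0.634 CPM in the MTZ libraries and 0, 5.75 and 136 CPM in the DMSO libraries. The thrombospondin gene thbs1b had 0.106, 60.1 and 0 CPM in the MTZ libraries and 0.0764, 112 and 0.0646 CPM in the DMSO libraries, nearly all in a single library of each group. Exocrine pancreas markers did not overlap either, with sums of 6.21, 10.5 and 579 CPM in MTZ and 0.153, 0.172 and 3.75 CPM in DMSO. Stem and progenitor markers had 1979, 1321 and 1432 CPM in MTZ and 1407, 327 and 734 CPM in DMSO, with overlap. T cell markers went the other way, also with overlap, at 268, 949 and 748 CPM in MTZ and 1154, 985 and 890 CPM in DMSO. The part of thrombocyte number in the bcl2a and bcl2l1 values was not tested.

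The Mcl-1 copies had almost the same mean in both groups. The gene mcl1a (ENSDARG00000009779) had 686, 1310 and 1444 CPM in the MTZ libraries and 1730, 997 and 753 CPM in the DMSO libraries. MTZ 1 was the lowest and DMSO 1 the highest of all. Its mean was 1147 ± 404 CPM in MTZ libraries, against 1160 ± 508 CPM in DMSO libraries (SD, n = 3 each), with a log2 fold change of -0.02 ± 0.38 and a 95% interval from -0.88 to 0.84. With a library left out it ran from -0.25 without DMSO 3 to 0.39 without DMSO 1.

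The paralog mcl1b (ENSDARG00000008363) had 167, 75.5 and 97.5 CPM in the MTZ libraries and 126, 67.6 and 147 CPM in the DMSO libraries. Its highest and lowest libraries were MTZ 1 and DMSO 2. The mean was 113 ± 47.7 CPM in MTZ libraries, against 114 ± 41.1 CPM in DMSO libraries (SD, n = 3 each), with a log2 fold change of -0.0027 ± 0.50 and a 95% interval from -1.14 to 1.13. With 3 libraries a group, changes of a size within these intervals were not excluded for either copy.

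**Figure D2:**
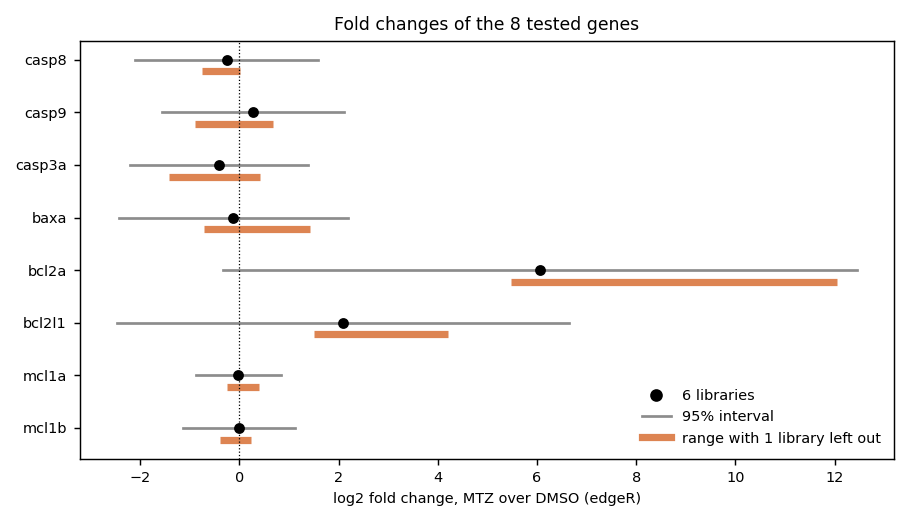
Log2 fold change of the 8 tested genes, MTZ over DMSO, by edgeR (black points), with its 95% interval (grey) and its range when each of the 6 libraries was left out (orange). The grey interval of every gene crosses 0, and the orange range lies on one side of 0 only for bcl2a (5.48 to 12.05) and bcl2l1 (1.5 to 4.20). For bcl2a, whose groups do not overlap, leaving out a single library could not turn the sign.

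The balance between the Mcl-1 copies differed between libraries within each group more than between groups. As a share of the counts of both copies, mcl1b took 19.6%, 5.45% and 6.32% in the MTZ libraries and 6.79%, 6.35% and 16.3% in the DMSO libraries, with exact 95% intervals no wider than from 15.7% to 16.9% in any library. MTZ 1 and DMSO 3 thus had well over the share of the remaining libraries. These are shares of counts with no correction for transcript length, so they are read across libraries and not as levels of the copies. The share averaged 10.4 ± 7.91% in MTZ and 9.82 ± 5.64% in DMSO (SD, n = 3 each), a difference of 0.625 percentage points (two-sided exact permutation p = 1, smallest possible p = 0.1). The difference was -3.93 percentage points without MTZ 1, -0.891 without DMSO 1 and -1.11 without DMSO 2.

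The libraries with the most mcl1b were those with the highest neutrophil marker sums, a pattern picked out after the values were seen. MTZ 1, DMSO 1 and DMSO 3, with 167, 126 and 147 CPM of mcl1b, had neutrophil marker sums of 15611, 5476 and 5028 CPM. Of these sums, 1177, 340 and 435 CPM came from cpa5, a listed marker that may not be particular to neutrophils. MTZ 2, MTZ 3 and DMSO 2, with 75.5, 97.5 and 67.6 CPM of mcl1b, had sums of 1052, 1494 and 1022 CPM. In these lower libraries most of the sum came from srgn, at 1020, 1207 and 979 CPM, a gene with counts in every library. The neutrophil lysozyme gene lyz had 9140, 6.57 and 5.22 CPM in the MTZ libraries and 3393, 4.37 and 3128 CPM in the DMSO libraries. The markers mmp9, mmp13a and srgn did not follow the pattern. For mmp9 the values were 0, 8.76 and 9.61 CPM in the MTZ libraries and 0, 26.2 and 61.5 CPM in the DMSO libraries. For mmp13a they were 14.4, 0 and 0.0488 CPM in the MTZ libraries and 0 in every DMSO library. With 3273 CPM in MTZ 1, srgn had 1047 and 1042 CPM in DMSO 1 and DMSO 3, below MTZ 3. The marker illr4 had no counts in any library. Between 6 and 8 of the 9 neutrophil markers had a count in each library. The part of neutrophil number in the mcl1b values was not tested.

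Taken as parts of the summed CPM of bcl2a, bcl2l1, mcl1a and mcl1b, the bcl2a and bcl2l1 genes together made up 11.4%, 4.07% and 3.05% in the MTZ libraries and 0%, 0.542% and 2.65% in the DMSO libraries. These genes were paired after their higher means in MTZ were seen, so the shares restate those values as a description. All MTZ libraries lay above all DMSO libraries, MTZ 3 by a small margin over DMSO 3, while bcl2l1 alone overlapped, with 1.31% in MTZ 2 and 2.65% in DMSO 3. Neither the shares nor the ratio to baxa are corrected for transcript length, and they are read across libraries only. The sum itself was 963, 1445 and 1590 CPM in the MTZ libraries and 1856, 1071 and 925 CPM in the DMSO libraries, so the groups overlapped. Divided by baxa, the sum was 33.7, 16.5 and 39.5 in the MTZ libraries and 71.2, 8.15 and 72.6 in the DMSO libraries, which were at both ends of the range.

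**Figure D3:**
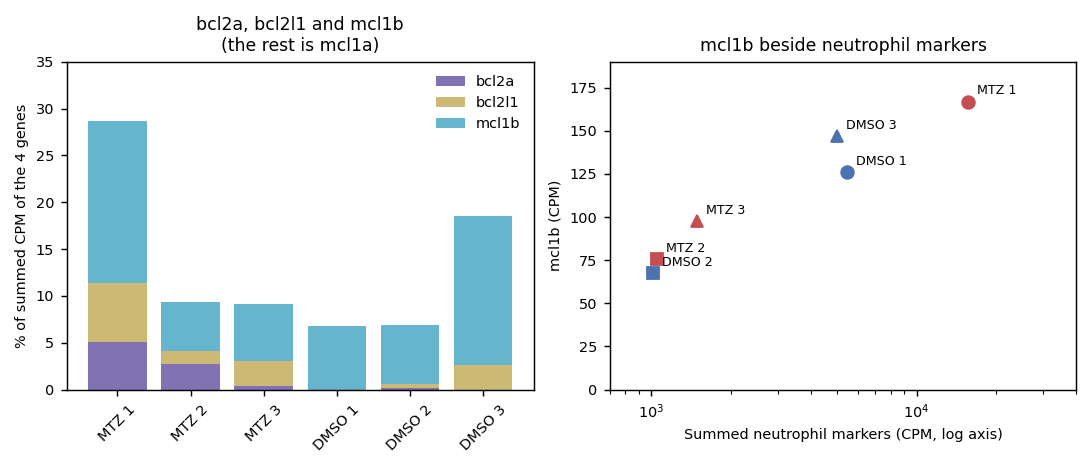
Left, bcl2a, bcl2l1 and mcl1b as stacked percentages of the summed CPM of the 4 guardian genes in each library (axis cut at 35%, since mcl1a makes up the rest), with bcl2a and bcl2l1 together at 3.05% or more in MTZ and 2.65% or less in DMSO. That pair was chosen after its values were seen, and the groups overlap for bcl2l1 alone. Right, mcl1b in CPM against the summed neutrophil markers in CPM (log axis) for the 3 MTZ (red) and 3 DMSO (blue) libraries, where MTZ 1, DMSO 1 and DMSO 3 are high on both axes.

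The spread of the genes within groups is given as an SD of log2 CPM pooled over both groups. It was 0.60 for mcl1a, 0.59 for mcl1b, 0.76 for casp8, 1.09 for casp9, 1.096 for casp3a and 1.35 for baxa. The value was 1.92 for bcl2a and 2.85 for bcl2l1, and the median over all tested rows was 2.01. Both of these genes had libraries at 0 counts, where log2 CPM rests on a prior count of 2, so their SDs depend on it. Among the 200 tested rows whose mean CPM lay within 2-fold of that of mcl1a, 93.0% had a lower spread than mcl1a and the median was 0.27. For casp8, 27.1% of the 3494 rows within 2-fold had a lower spread. The same share was 22.6% for bcl2a, 37.2% for mcl1b, 51.6% for bcl2l1, 56.1% for baxa, 60.2% for casp9 and 67.0% for casp3a.

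The genes whose log2 CPM was most like that of each member over the 6 libraries were searched among 5413 named genes with a mean of at least 20 CPM (5414 for bcl2a, itself under that mean). The closest were rp2 for casp8 (Pearson r = 0.98), atp1b3b for casp9 (0.98), zbtb33 for casp3a (0.98) and dtnbp1a for baxa (0.99). For the guardians they were stk35 for bcl2a (0.97), dpp9 for bcl2l1 (0.99), rps6 for mcl1a (0.98) and wdr46 for mcl1b (0.99). The next closest were stx10, sys1, kif2c, stt3a, seta, alg12, mycla and rragca, in the same order of members. The gene casp3b, below the filter, was not searched. Each of the 8 genes searched had a partner at 0.97 or above, so with 6 libraries these values set no pair apart.

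Other genes of the apoptosis pathway were read from a list of 102 symbols in 8 roles, of which 82 were found in the table and 55 were tested. EdgeR called 0 of the 55 (0% of all tested rows), 35 were higher and 20 lower in MTZ, and the median log2 fold change was 0.18, beside 50.9% higher and a median of 0.02 over all tested rows. At an unadjusted p under 0.05 there were 4 of the 55 (3.18% of all rows), and in 6 the groups did not overlap (10.8% of all rows), 5 of them higher in MTZ. Of these 6, 2 (bmf2 and gsna) entered the test through MTZ, where they were high. The edgeR adjusted p was 0.9997 for each of the tested genes of the list named here. The medians of the single roles, each over 4 to 10 genes, moved with single libraries, and their values with a library left out are given beside them.

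Of the BH3-only genes, 4 were higher and 3 lower among 7 tested (median 0.27, from 0.052 without MTZ 3 to 0.46 without DMSO 1). The gene bmf2, for a protein that binds guardians, had 15.9, 33.1 and 4.73 CPM in the MTZ libraries and 0.153, 0.0575 and 0 CPM in the DMSO libraries. MTZ 1 and MTZ 2 were high and MTZ 3 lower, as for bcl2a, and the groups did not overlap. With 941 counts in MTZ and 3 in DMSO, the ratio of pooled rates was 258, with an exact 95% interval of 88.2 to 1255 for counting error alone. Leaving out a library moved the ratio to between 155 (without MTZ 2) and 554 (without DMSO 1). The gene reached 10 counts in all 3 MTZ libraries and in 0 DMSO libraries, so it entered the test through the group where it was high. EdgeR gave bmf2 an unadjusted p of 0.0213, and DESeq2 called it (adjusted p = 6.05e-05 on all rows and 0.00274 on the filtered rows, in a range from 6.05e-05 to 1 over 15 alternatives). Over all genes, DESeq2 called 3.82% of all rows and 1.33% of the filtered rows. The lower gene of smallest p, bnip3la, a mitophagy receptor gene, averaged 3.71 ± 3.97 CPM in MTZ libraries, against 7.08 ± 8.18 CPM in DMSO libraries (SD, n = 3 each).

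Among the executioner substrates, 7 were higher and 2 lower of 9 tested (median 0.35). Without DMSO 1, the library rich in skeletal muscle markers, 5 were higher and 4 lower with a median of 0.031, and the highest median was 0.58 without DMSO 3. The gelsolin gene gsna, whose product severs actin and is cut by caspase-3 in mammals, had 59.6, 42.4 and 15.5 CPM in the MTZ libraries and 0.153, 0.0575 and 0.969 CPM in the DMSO libraries. The groups did not overlap, with a log2 fold change of 6.61 ± 2.06 that ran from 6.11 to 8.46 with a library left out. With at least 10 counts in all 3 MTZ libraries but in only 1 DMSO library, gsna too entered the test through the group where it was high. Its edgeR unadjusted p was 0.0119, and DESeq2 called it (adjusted p = 2.22e-05 on all rows and 0.000411 on the filtered rows, in a range from 2.22e-05 to 1 over 16 alternatives).

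The kinase gene rock1, whose product is activated by caspase-3 cleavage in mammals, had lower values in MTZ. It had 16.2, 12.9 and 13.9 CPM in the MTZ libraries and 97.3, 133 and 25.1 CPM in the DMSO libraries. Every MTZ library was below every DMSO library, and the log2 fold change was -2.57 ± 0.90. The edgeR unadjusted p was 0.0201, and DESeq2 called rock1 on all rows (adjusted p = 0.0194) but not on the filtered rows (0.114), in a range from 0.0194 to 1 over 16 alternatives.

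In the mitochondrial group, 6 of 9 tested genes were higher and 3 lower (median 0.23, from 0.11 without MTZ 1 to 0.36 without DMSO 3). The gene aifm1, for a flavoprotein of the mitochondrial intermembrane space, had 224, 99.5 and 66.9 CPM in the MTZ libraries and 28.9, 65.7 and 45.4 CPM in the DMSO libraries. MTZ 3 stood just above DMSO 2, and the log2 fold change was 1.48 ± 0.63 (edgeR unadjusted p = 0.0458), or 0.84 without MTZ 1. The IAP antagonist gene diablob averaged 14 ± 8.94 CPM in MTZ libraries, against 33.4 ± 21.9 CPM in DMSO libraries (SD, n = 3 each).

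In the death receptor pathway, 6 of 10 tested genes were higher and 4 lower (median 0.40). The median was -0.17 without MTZ 3 and -0.036 without DMSO 3, and it reached 0.89 without DMSO 1. The TNF receptor gene tnfrsf1a had 115, 99.8 and 169 CPM in the MTZ libraries and 39.0, 88.5 and 78.8 CPM in the DMSO libraries. The groups did not overlap, and the log2 fold change was 0.90 ± 0.50 (edgeR unadjusted p = 0.113). The adaptor gene cradd had 0, 1 and 20 counts in MTZ and 147, 0 and 104 counts in DMSO, so DMSO 2 lay with the MTZ libraries.

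Of the other caspases, 3 of 5 tested were higher and 2 lower (median 0.52). The median was -0.19 without DMSO 1 and 0.81 without DMSO 2, and 1.54 under limma voom. The gene casp22, listed in the table as si:dkey-103e21.5, had 32.7, 44.9 and 19.9 CPM in the MTZ libraries and 4.89, 11.1 and 17.3 CPM in the DMSO libraries. The groups did not overlap, with a log2 fold change of 1.55 ± 1.39 (edgeR unadjusted p = 0.296). The gene casp2, for an initiator-like caspase, averaged 10.3 ± 7.75 CPM in MTZ libraries, against 24.4 ± 21.7 CPM in DMSO libraries (SD, n = 3 each).

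Of the other Bcl-2 family genes, 4 of 6 tested were higher and 2 lower (median 0.10). The median was -0.66 without MTZ 1, -0.13 without DMSO 2 and -0.28 without DMSO 3, and 0.39 without MTZ 3. The guardian-like gene bcl2l10 had 74, 248 and 106 CPM in the MTZ libraries and 345, 177 and 178 CPM in the DMSO libraries. Like casp3a and casp9, it was highest in DMSO 1 and MTZ 2, and its log2 fold change was -0.71 ± 0.52. The mitochondrial gene bcl2l13 averaged 59.0 ± 65.4 CPM in MTZ libraries, against 45.3 ± 20.5 CPM in DMSO libraries (SD, n = 3 each).

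The IAP family, whose members bind caspases or their regulators, had 2 of 4 tested genes higher and 2 lower (median -0.01). The median ran from -0.25 without MTZ 1 to 0.27 without MTZ 3, and it was also positive without MTZ 2 (0.21) or DMSO 2 (0.20). The caspase inhibitor gene xiap averaged 46.2 ± 33.3 CPM in MTZ libraries, against 48.7 ± 22.01 CPM in DMSO libraries, and the ubiquitin ligase gene birc2 averaged 186 ± 135 CPM in MTZ libraries, against 168 ± 35.8 CPM in DMSO libraries (SD, n = 3 each). MTZ 1 had the most of both, with 84.7 CPM of xiap and 341 CPM of birc2.

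Of the genes grouped with Mcl-1 turnover, 3 of 5 tested were higher and 2 lower (median 0.32). The median was -0.050 without MTZ 2 and -0.071 without DMSO 1, and it reached 0.63 without DMSO 2. The ubiquitin ligase gene mdm2 averaged 113 ± 37.1 CPM in MTZ libraries, against 62.9 ± 30.0 CPM in DMSO libraries (SD, n = 3 each), with a log2 fold change of 0.84 ± 0.57 (edgeR unadjusted p = 0.174). Its groups overlapped.

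**Figure D4:**
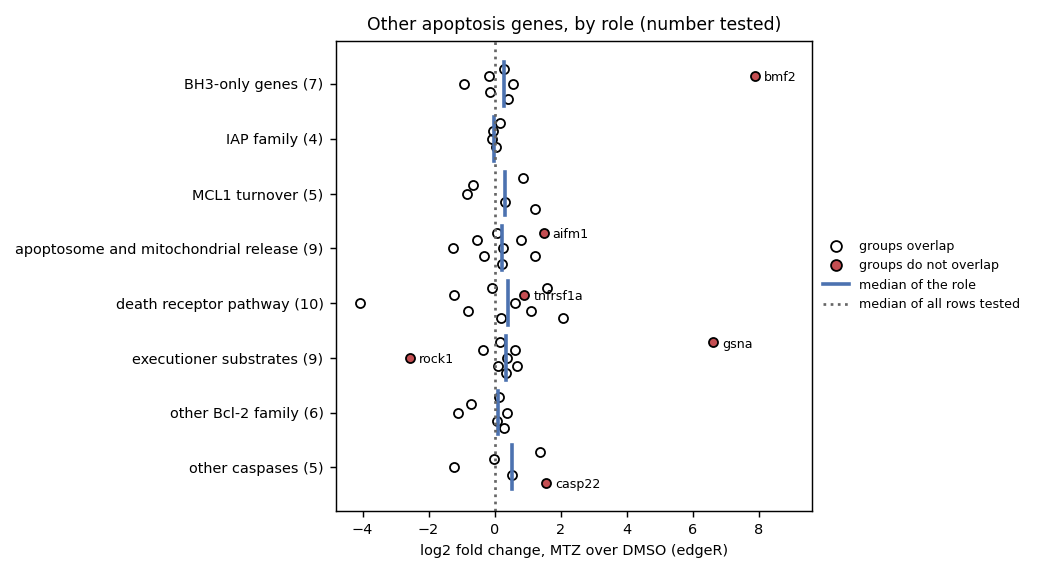
Log2 fold change, MTZ over DMSO (edgeR), of the 55 tested genes of the apoptosis list by role, with the number tested in brackets, the median of each role (blue) and the median of all tested rows (dotted, 0.02). Filled points are the 6 genes whose groups do not overlap: bmf2, gsna, aifm1, tnfrsf1a and casp22 higher in MTZ and rock1 lower.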

How the data were processed

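Gene-level estimated counts of 6 Smart-seq2 libraries, with unequal totals, were used as the authors deposited them in 1 table. The aligner HISAT2 and the build GRCz11 are named in the submitters' processing notes. The counting tool, its annotation, its strand setting and all versions were not given in the sources used here. Between 8.31% and 9.90% of the nonzero values had decimals, and all were rounded to whole numbers. Reads of close copies (casp3a and casp3b, mcl1a and mcl1b) could have been split between them. No sequences, coordinates or transcript lengths are given, so CPM, and shares or ratios made from them, are compared across libraries and not as levels between genes.

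MTZ was compared with DMSO by edgeR 4.0.16 (quasi-likelihood, two-sided, TMM factors, default filter with a minimum count of 10) on R 4.3.3, over all 10283 rows that passed, with Benjamini-Hochberg adjustment over them. SEs are the fold change's size over the square root of F. DESeq2 1.42.0 and limma 3.58.1 were alternatives. The fits were tested on simulated data with a limited range of fold changes and the same spread for all genes. When the spread between libraries was low, edgeR called changed genes there, but missed many of those with the smallest fold change simulated. When the spread was high, edgeR called none of the changed genes. Larger changes, and spreads that differ between genes as in the real libraries, were not simulated. The spread in the real libraries (biological coefficient of variation 1.42) was above the high one simulated. Shares were compared by exact permutation over 20 relabellings. In the apoptosis list, 7 of the 82 symbols found were found by gene ID under another name. Named genes were the 9 members, the gene of smallest p per role and direction (1 of them is not reported here), and the 2 genes most like each member. The 9 members, the lists and the rules were chosen with earlier results of these data known. Same-numbered libraries did not deviate together (correlations of -0.008, -0.0008 and -0.046).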

Additional observations from a re-analysis of the deposited data

How the results depend on the processing

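Against 0 calls by edgeR, DESeq2 made 386, DESeq2 on the filtered rows (chosen after seeing the data) 130 and edgeR without a filter 52, and the cause was not tested. None of the 9 genes was called under those of the 16 alternatives that gave it an adjusted p. Some signs turned, and not only those of genes near 0, since bnip3la had -0.93 by edgeR on all 6 libraries. Under limma voom casp9 had a log2 fold change of -0.10, baxa 0.20, mcl1a 0.042, mcl1b 0.047, birc2 -0.036 and bcl2l13 -0.43. Without a filter mcl1b had 0.011. With the replicate number as a block, 0 rows were called. The log2 fold changes were then -0.0079 for casp9, 0.39 for baxa, 0.019 for mcl1a, 0.54 for bnip3la, -0.069 for birc2 and -0.66 for bcl2l13. Nothing in the labels pairs the libraries. With each library left out, the values ran from -0.75 to 0.020 for casp8, from -0.89 to 0.69 for casp9, from -1.41 to 0.41 for casp3a, from -0.72 to 1.43 for baxa, from -0.25 to 0.39 for mcl1a and from -0.38 to 0.23 for mcl1b. For other genes they ran from -2.12 to 0.52 for bnip3la, from -0.63 to 0.45 for birc2, from -0.84 to 0.24 for xiap and from -0.95 to 0.95 for bcl2l13. The difference in the mcl1b share ran from -3.93 to 3.88 percentage points. The median over the whole apoptosis list lay between 0.16 and 0.29 in the 16 alternatives, but those of single roles turned. That of the other Bcl-2 family was -0.63 under limma voom, -0.71 with the replicate block and -0.22 where 10 CPM were required in 3 libraries. Under that requirement the median of Mcl-1 turnover was -0.18. The requirement left 4 genes in each of these roles, from 6 and 5. It also removed bcl2a, bmf2, bnip3la and cradd, none of them in these roles. Shares per coding length were not run, because no lengths were used. With 50 cells a library and 3 libraries a group, the intervals on the fold changes are wide.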

Other observations

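Of the apoptosis list, 27 genes were found but not tested. In 11 of them no library had a count, among them the guardian gene bcl2b and the BH3-only gene bnip3, and 6 had at least 10 counts in exactly 1 library. The cytokine gene tnfa had 1, 2029 and 1 counts in the MTZ libraries and 2, 0 and 0 counts in the DMSO libraries. The BH3-only gene bik had 202, 0 and 0 counts in the MTZ libraries and 0, 1 and 0 in the DMSO libraries, while the Puma gene bbc3 had 1, 1 and 11 counts in MTZ and 0, 0 and 183 in DMSO. The death ligand gene tnfsf10 had 398, 1 and 0 counts in the MTZ libraries and 0, 469 and 2 in the DMSO libraries. The death receptor adaptor gene fadd had 71, 0 and 73 counts in the MTZ libraries and none in the DMSO libraries. These genes were picked after their values were seen.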
